A study of Homo sapiens with 64 samples.

Results

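SW48 is an established human colorectal cancer cell line, and the 8 samples described here are its 4 label-retaining (LRC) and 4 non-label-retaining (non-LRC) populations, out of 64 samples in the whole series. They were chosen as every sample whose title names SW48, and LRC and non-LRC samples were paired by the replicate number in that title (1 to 4). The cells were stained with the dye CFSE, grown for 6 days as non-adherent spheroids with bFGF and EGF, and sorted by FACS into cells that still held the dye (LRC, called dormant in the labels) and the dividing remainder (non-LRC, called BULK in the labels). The other 56 samples came from 5 further colorectal lines sorted in the same way (40 samples) and from dye and culture controls in 1 of those lines (16 samples), which were not used here. Both SW48 populations had the dye, the medium and the days in culture in common, and no drug or gene edit was applied. As a model this is 1 cell line, and nothing in the labels says that the replicates were separate cultures, so the p-values measure the spread between these samples.

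CFSE binds covalently to cell protein and is shared between daughter cells at each division, so a cell that divides rarely stays bright while its neighbours grow dim. A cell leaves the cycle when the cyclin-dependent kinases are held back by inhibitor proteins such as p21, the product of CDKN1A. The RB family proteins and the DREAM complex then keep replication and mitotic genes silent. p53 is the best known activator of CDKN1A. In the gut, cells that stop dividing near the crypt top usually differentiate into enterocytes or goblet cells.

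Each SW48 sample held between 12740551 and 17334036 reads counted on genes. The non-LRC and LRC totals overlapped (two-sided exact permutation test, p = 0.6286). Levels are given as CPM, the counts of a gene per 1000000 counts of the sample, with the sample total scaled by edgeR's TMM factor. Of the epithelial markers, EPCAM stood at 346 ± 18.8 CPM (SD, n = 4) in LRCs against 344 ± 21.9 in non-LRCs. Of the 8 epithelial markers tested none passed in edgeR or DESeq2 (2 had an unadjusted p under 0.05 in edgeR). The 8 fibroblast markers together came to between 0.525 and 1.66 CPM in any sample, with 4 of 8 at 0 throughout. Of the 8 leukocyte markers 4 were at 0 in every sample, whereas PTPRC, which encodes CD45, had 1667 reads over the 8 samples. Among intestinal markers KRT20 was at 0.628 CPM or less and MUC2 at 0.167 CPM or less in every sample, whereas CDH17 was at 18.3 to 54.4 CPM and TSPAN1 at 28.9 to 93.4 CPM. Replicate 2 stood apart from the other 3 in both populations along the first principal component (39.7% of the variance), whereas the second component (23% of the variance) separated LRCs from non-LRCs. Transcripts of the mitochondrial genome took 13.0% ± 0.318 of the counts in LRCs and 9.89% ± 0.751 in non-LRCs, with no overlap and higher in 4 of 4 pairs (two-sided exact permutation test, p = 0.02857, the smallest that 4 against 4 allows).

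The first question was which genes differ between SW48 LRCs and the non-LRCs of the same replicate. The test was applied to the 13196 genes that reached 10 counts in 4 or more samples. In edgeR's quasi-likelihood test blocked on replicate number, 1356 of them (10.3%) had an adjusted p, corrected by Benjamini and Hochberg for all genes tested, under 0.05. Of these, 748 (5.67%) were higher in LRCs and 608 (4.61%) were lower. The increases reached further: 118 of the higher genes and 8 of the lower genes had changed at least 2-fold. The median change over all genes tested was -0.0047 on the log2 scale. With library size as the only scaling the split became 517 higher and 1357 lower, and that median -0.07. Without the replicate block 112 genes passed, 101 (0.765%) higher and 11 (0.0834%) lower, and 111 of them were among the 1356. DESeq2 called 954 genes (7.23%), 544 (4.12%) higher and 410 (3.11%) lower, and 926 were called by both tools. Leaving out pair 1 gave 628 genes, pair 2 gave 1336, pair 3 gave 926 and pair 4 gave 550, and 412 of the 1356 passed whichever pair was left out. Without the mitochondrial genes 1324 of 13172 genes passed. The part of the mitochondrial share in the other changes was not tested.

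**Figure D1:**
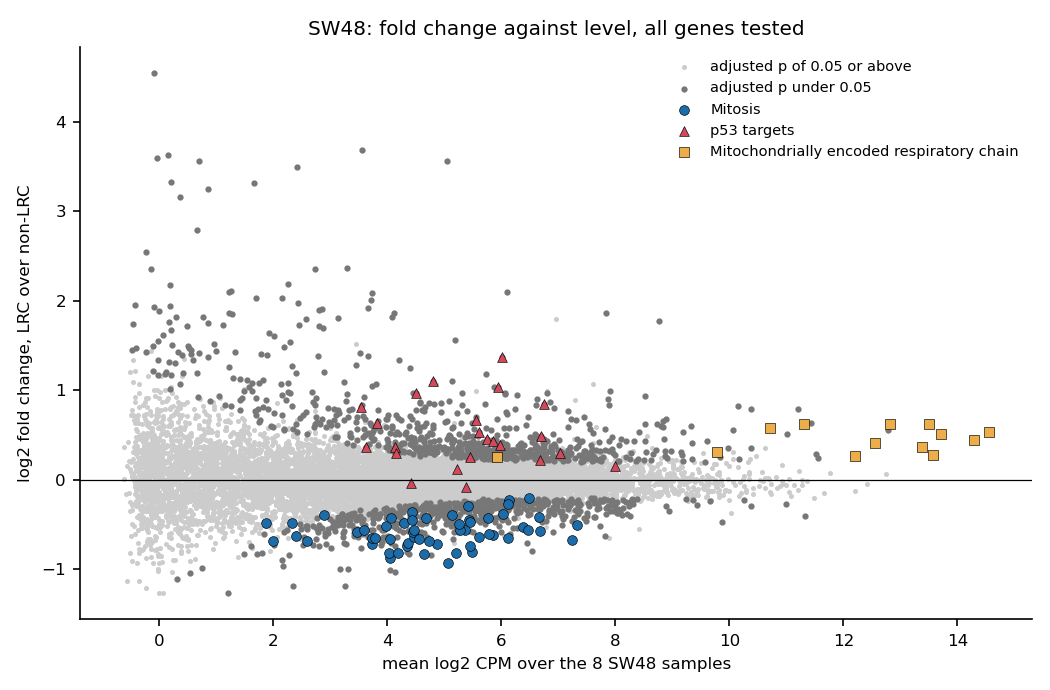
Log2 fold change of LRCs over non-LRCs (vertical axis) against mean log2 CPM (horizontal axis) for all 13196 genes tested in SW48, with the 56 mitotic genes, 23 p53 target genes and 13 mitochondrially encoded genes marked. All 56 mitotic genes lie below 0, all 13 mitochondrial genes lie above it, and genes with a rise of more than 2-fold are mostly of low or moderate level.

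Genes of mitosis were lower in SW48 LRCs. Of 56 mitotic genes tested, 43 fell (background 4.61%) and no member rose, with a median log2 fold change of -0.58 (range -0.93 to -0.21). The mean log2 CPM of the list differed between LRCs and non-LRCs by -0.25, -0.64, -0.57 and -0.79 in pairs 1 to 4, so pair 1 showed the smallest difference. PLK1, the kinase that drives mitotic entry and spindle assembly, was at 13.6, 36.9, 17.8 and 20.3 CPM in LRC replicates 1 to 4 and at 21.6, 85.7, 28.5 and 42 CPM in the matching non-LRCs. Replicate 2 was the highest sample of each population and the groups overlapped, but the LRC value was the lower in all 4 pairs. PLK1 fell by 0.93 ± 0.10 on the log2 scale (SE; adjusted p = 0.00029). CCNB2, a cyclin of the mitotic kinase CDK1, was at 11.6, 30, 13.6 and 15.9 CPM in LRCs and at 17.7, 56.7, 24.5 and 29.9 CPM in non-LRCs, and fell by 0.83 ± 0.08 (adjusted p = 0.0002). BIRC5, which encodes the chromosomal passenger survivin, fell by 0.81, and KIF2C, a kinesin that takes microtubules apart at centromeres, by 0.82. PRC1, which bundles the central spindle, fell by 0.65 and CCNB1, the main mitotic cyclin, by 0.75 (adjusted p between 0.00012 and 0.00045 for these 4 genes). MKI67, the source of the Ki-67 antigen, was at 50.2, 243, 76.3 and 75.5 CPM in LRCs and at 45.9, 413, 128 and 177 CPM in non-LRCs. It was lower in LRCs in 3 of 4 pairs and did not pass (log2 fold change -0.67 ± 0.22, adjusted p = 0.15). In sorted bulk populations, fewer mitotic cells and less of these RNAs per cell cannot be told apart. None of the 56 genes passed in edgeR without the block, where 5 had an unadjusted p under 0.05. With the block, 39 passed in DESeq2, and between 34 and 48 fell when 1 pair was left out (35 without pair 2).

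The promoters of mitotic genes are known for a CHR element (TTTGAA) near the start site with a CCAAT box (CCAAT) upstream of it, the layout bound by the DREAM and NF-Y complexes. Among the 250 bases before the start, both motifs, searched on both strands, were present in 21 of 49 mitotic promoters with a RefSeq window (42.9%) and in 4.85% of all 27305 promoters. The CHR element alone was in 51% of the mitotic promoters against 13.6% of all, and the CCAAT box in 73.5% against 33%. The 3 members shown are those with both motifs and the smallest p-values (GRCh38.p14, 5′ to 3′ on the strand of the gene, CHR elements and CCAAT boxes in capitals). They lie at chr15:59104896-59105145 on the plus strand for CCNB2, at chr15:90994536-90994785 on the minus strand for PRC1 and at chr16:23678639-23678888 on the plus strand for PLK1.
CCNB2: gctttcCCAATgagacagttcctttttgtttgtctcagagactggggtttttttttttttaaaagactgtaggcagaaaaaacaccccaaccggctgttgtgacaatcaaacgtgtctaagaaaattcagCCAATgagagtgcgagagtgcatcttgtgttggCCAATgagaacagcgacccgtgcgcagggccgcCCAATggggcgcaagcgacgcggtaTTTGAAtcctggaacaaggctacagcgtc
PRC1: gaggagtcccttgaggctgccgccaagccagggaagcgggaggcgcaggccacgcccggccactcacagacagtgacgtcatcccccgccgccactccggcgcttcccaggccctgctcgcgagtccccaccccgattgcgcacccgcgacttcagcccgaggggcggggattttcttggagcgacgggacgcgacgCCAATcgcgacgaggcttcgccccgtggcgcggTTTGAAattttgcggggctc
PLK1: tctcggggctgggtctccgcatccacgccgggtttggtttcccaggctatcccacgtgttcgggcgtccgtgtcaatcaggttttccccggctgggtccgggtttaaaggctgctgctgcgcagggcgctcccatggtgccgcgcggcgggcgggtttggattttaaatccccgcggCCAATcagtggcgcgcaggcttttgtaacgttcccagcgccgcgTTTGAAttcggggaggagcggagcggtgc
In CCNB2 and PLK1 the CHR element began 29 bases before the start, and in PRC1 20 bases before it. CCNB2 held 4 CCAAT boxes and PLK1 and PRC1 1 each. A match is a description of the letters, and binding was not measured.

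**Figure D2:**
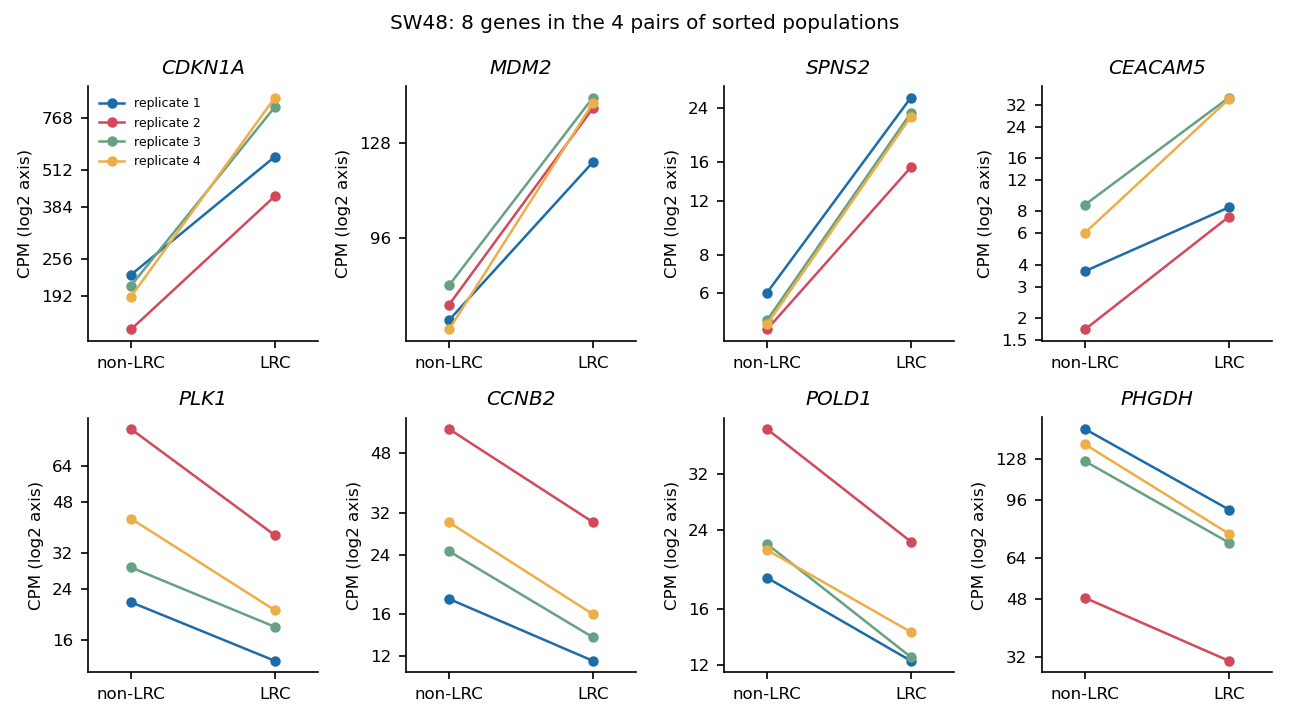
CPM (log2 axis) of 8 genes in the non-LRCs and LRCs of SW48, with 1 line per replicate. CDKN1A, MDM2, SPNS2 and CEACAM5 were higher and PLK1, CCNB2, POLD1 and PHGDH were lower in LRCs in 4 of 4 pairs, while replicate 2 set the highest level of PLK1, CCNB2 and POLD1 and the lowest of PHGDH in both populations.

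DNA replication genes moved in the same direction to a smaller extent. Of 49 tested, 27 fell (background 4.61%) and no member rose, with a median log2 fold change of -0.31. POLD1, the catalytic subunit of DNA polymerase delta, was at 12.3, 22.6, 12.5 and 14.2 CPM in LRCs and at 18.8, 40.4, 22.4 and 21.7 CPM in non-LRCs, and fell by 0.73 ± 0.09 (adjusted p = 0.00045). MCM2, a subunit of the replicative helicase, fell by 0.44 ± 0.07 (adjusted p = 0.0024), and CDCA7, a chromatin regulator induced by MYC and E2F, by 0.47 ± 0.07 (adjusted p = 0.003). MYBL2, which joins the MuvB core to switch on mitotic genes and was not in either list, fell by 1.001 ± 0.13 (adjusted p = 0.00078). Without the block none of the 49 replication genes passed in edgeR, where 8 had an unadjusted p under 0.05, and with the block 21 passed in DESeq2. An E2F-type motif (TTTGGCGC, TTTCGCGC, TTTCCCGC or TTTGCCGC on either strand) was present in 18 of 42 promoters of the list (42.9%) and in 2.79% of all promoters. The 2 members shown are those with the motif and the smallest p-values (GRCh38.p14, 5′ to 3′ on the strand of the gene, E2F-type motif in capitals). They lie at chr2:173354622-173354871 on the plus strand for CDCA7 and at chr16:85688955-85689204 on the minus strand for GINS2.
CDCA7: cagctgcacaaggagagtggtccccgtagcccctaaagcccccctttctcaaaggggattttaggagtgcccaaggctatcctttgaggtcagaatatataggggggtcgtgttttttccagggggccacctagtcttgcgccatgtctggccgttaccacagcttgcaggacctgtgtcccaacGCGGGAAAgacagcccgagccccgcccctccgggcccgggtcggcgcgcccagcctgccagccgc
GINS2: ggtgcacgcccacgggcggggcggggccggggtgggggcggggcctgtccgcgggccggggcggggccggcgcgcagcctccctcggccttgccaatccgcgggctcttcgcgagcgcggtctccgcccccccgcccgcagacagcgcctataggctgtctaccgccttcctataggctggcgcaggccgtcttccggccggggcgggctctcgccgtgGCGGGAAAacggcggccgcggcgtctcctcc
The CHR element was in 1 of the 42 replication promoters (2.38%) and the E2F-type motif in 2 of the 49 mitotic ones (4.08%).

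Cell cycle inhibitors moved unequally. Of 20 inhibitors, D-type cyclins and RB family members tested, 10 rose (background 5.67%) and 1 fell (median log2 fold change 0.25). CDKN1A, which encodes p21 (chromosome 6 in GRCh37), was at 569, 418, 839 and 902 CPM in LRCs and at 227, 148, 208 and 191 CPM in non-LRCs. Every LRC sample was above every non-LRC sample, and CDKN1A rose by 1.77 ± 0.16 on the log2 scale (adjusted p = 0.0018, and 0.012 without the block). TOB1, an antiproliferative adaptor of mRNA deadenylation, rose by 0.97 ± 0.07, its relative BTG2 by 0.90 ± 0.11 and the atypical cyclin CCNG2 by 0.74 ± 0.07. TOB1 did not pass without the block (adjusted p = 0.13). The groups did not overlap for BTG2 and CCNG2, and 8.32% of all genes tested had groups that did not overlap. CDKN1C, which encodes p57, rose by 0.52 ± 0.14 (adjusted p = 0.041, and 0.4 without the block). CDKN1B, which encodes p27, had a log2 fold change of -0.15 ± 0.08 and did not pass (adjusted p = 0.25). CDKN2A, the p16 gene, was low, at 0.837, 1.25, 0.835 and 1.17 CPM in LRCs and at 1.44, 3.12, 1.43 and 2.23 CPM in non-LRCs, and fell by 0.98 ± 0.24 (adjusted p = 0.027). Without the block 3 of the 20 genes passed, and with library size as the only scaling 5 rose and 2 fell.

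Most p53 target genes rose. Of 23 tested, 17 rose (background 5.67%), 6 did not pass and no member fell (median log2 fold change 0.43, range -0.08 to 1.37). The list mean was higher in LRCs by 0.39, 0.48, 0.53 and 0.64 in pairs 1 to 4. MDM2, the ubiquitin ligase that turns p53 over, was at 121, 142, 147 and 144 CPM in LRCs and at 74.8, 78.3, 83.1 and 72.7 CPM in non-LRCs. All LRC values lay above all non-LRC values, and MDM2 rose by 0.84 ± 0.07 (adjusted p = 5.1e-05, and 0.0025 without the block). ZMAT3, an RNA-binding p53 target, was at 80.4, 63.8, 101 and 88.3 CPM in LRCs and at 36.8, 34.4, 50.8 and 40.1 CPM in non-LRCs, and rose by 1.04 ± 0.07 (adjusted p = 2.1e-05). TP53INP1, which promotes autophagy and cell death, rose by 1.10 ± 0.09 and the death receptor FAS by 0.97 ± 0.11. GDF15, a stress-induced cytokine, was at 93, 48.6, 104 and 118 CPM in LRCs and at 64.4, 12.4, 37.2 and 37.6 CPM in non-LRCs. GDF15 had the largest change of the list but a wide spread (log2 fold change 1.37 ± 0.26, adjusted p = 0.045). Without the block 6 of the 23 genes passed (0.765% of all genes were higher in that fit), 13 passed in DESeq2, and between 8 and 16 rose when 1 pair was left out (16 without pair 2).

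The next genes were picked one by one from those that rose at least 2-fold, mostly genes of squamous epithelium, and belong to no list tested. RPTN, HEPHL1, CPA4 and CDSN were among the 12 largest increases, and the others were not. Genes of other kinds rose more than CDSN and DSG3, such as BHLHE41 (log2 fold change 3.32), INHBA (2.36) and SPNS2 (2.09). Genes picked in this way cannot say whether squamous genes rose as a set. RPTN, which encodes repetin of the cornified envelope (chromosome 1, 152126071 to 152131704 in GRCh37), was at 57.1, 27.3, 78.2 and 83.4 CPM in LRCs and at 8.79, 1.27, 6.73 and 4.47 CPM in non-LRCs, an 11.8-fold difference (log2 fold change 3.56 ± 0.28, adjusted p = 0.002). HEPHL1, a copper-dependent ferroxidase, was at 18.9, 5.86, 30.3 and 34.2 CPM in LRCs and at 1.71, 1.59, 1.2 and 2.02 CPM in non-LRCs (log2 fold change 3.68 ± 0.37, adjusted p = 0.0037). Replicate 2 had the lowest LRC value of both genes, and still every LRC value exceeded every non-LRC value. CPA4, a carboxypeptidase, rose by 3.49 ± 0.27, and CDSN, the corneodesmosome protein corneodesmosin, by 1.97 ± 0.23. At lower counts, FLG, which encodes filaggrin, rose by 3.63 ± 0.52 (116 reads over the 8 samples), the late cornified envelope gene LCE3D by 3.16 ± 0.41 (137 reads) and the calprotectin subunit S100A9 by 4.54 ± 0.61 (96 reads). ABCA12, the lipid transporter of the skin barrier, rose by 3.25 ± 0.31, and DSG3, a desmosomal cadherin of squamous epithelium, by 1.71 ± 0.19. The 9 genes passed with the block (adjusted p between 6e-05 and 0.0037) and also without it. FLG, LCE3D, S100A9 and ABCA12 were at 0.433 CPM or less in every non-LRC sample and had enough counts to be tested only through the LRCs, so that their passing is no independent support for the others.

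Of 14 keratin genes tested, 5 rose (background 5.67%) and no member fell, with a median log2 fold change of 0.55. KRT6A, a keratin of activated keratinocytes, was at 13.5, 11.9, 8.52 and 9.63 CPM in LRCs and at 5.71, 2.55, 1.88 and 2.02 CPM in non-LRCs (log2 fold change 1.90 ± 0.18, adjusted p = 0.00017). KRT23 rose by 1.34 ± 0.17 (adjusted p = 0.0021). The list means differed by 0.08 in pair 1 and by 0.84 to 0.97 in pairs 2 to 4. Without the block 2 keratins passed.

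SPNS2, the exporter of sphingosine 1-phosphate (chromosome 17, 4402176 to 4442330 in GRCh37), had the smallest p-value of all genes in SW48. It was at 25.9, 15.4, 23.1 and 22.5 CPM in LRCs and at 6.03, 4.58, 4.91 and 4.76 CPM in non-LRCs, a 4.25-fold difference (log2 fold change 2.09 ± 0.11, adjusted p = 9.6e-06, and 0.0014 without the block). INHBA, the activin A subunit, was at 21.6, 6.83, 21.6 and 16.5 CPM in LRCs and at 3.41, 2.48, 3.37 and 3.17 CPM in non-LRCs (log2 fold change 2.36 ± 0.18, adjusted p = 5.1e-05). SLC6A20, a proline transporter, was at 155, 57.5, 127 and 103 CPM in LRCs and at 51.3, 12.1, 28.5 and 18.2 CPM in non-LRCs. It rose by 2.10 ± 0.13 (adjusted p = 0.00011) but did not pass without the block (adjusted p = 0.15). LOXL4, a lysyl oxidase that crosslinks collagen, rose by 2.36 ± 0.25, GLIPR1 by 2.19 ± 0.22 and COL6A5, a collagen VI chain, by 2.02 ± 0.22. NECTIN4, a cell adhesion molecule, rose by 1.92 ± 0.17. Of the 53 named genes that passed both fits with at least a 2-fold change, 51 rose and 2 fell. They included CTSV, a cysteine cathepsin, at 265, 196, 512 and 481 CPM in LRCs and at 84.1, 91.8, 105 and 92.7 CPM in non-LRCs (log2 fold change 1.86 ± 0.26, adjusted p = 0.024), and the adhesion protein gene MPZL3 (log2 fold change 1.18 ± 0.07, adjusted p = 1.9e-05).

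**Figure D3:**
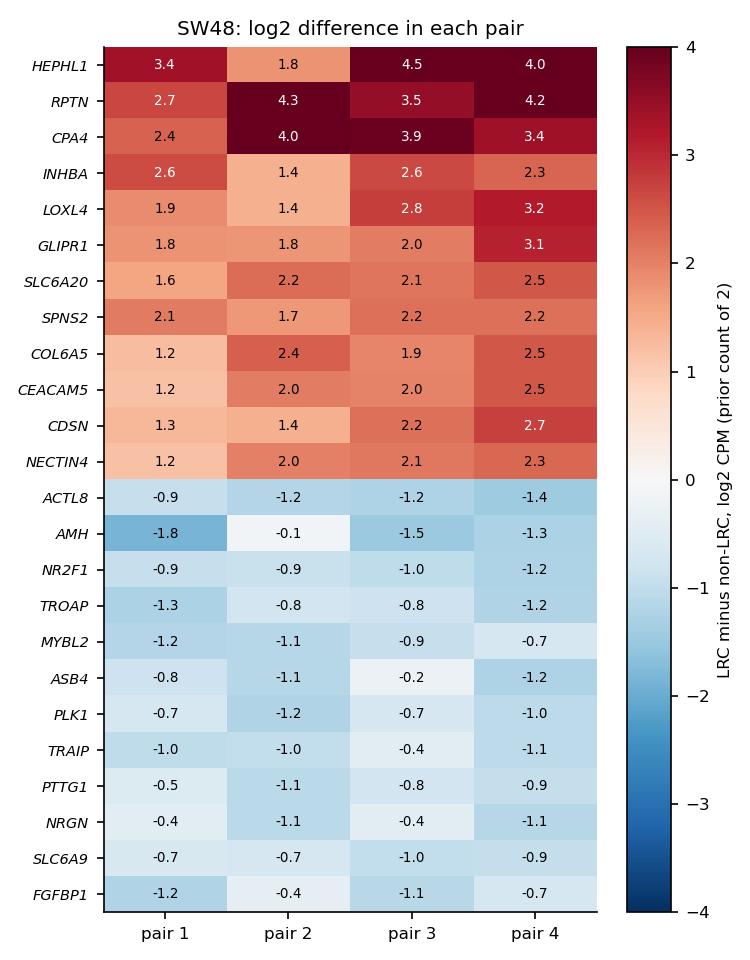
Log2 CPM of LRCs minus that of non-LRCs in each of the 4 SW48 pairs (columns) for the 12 genes with the largest increase and the 12 with the largest decrease among genes that passed, went 1 way in all pairs and averaged at least 2 log2 CPM (rows). The increases lie between 1.17 (CEACAM5) and 4.515 (HEPHL1), and the decreases between -0.11 and -1.85, both of which are values of AMH.

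The 12 largest decreases were smaller than the increases. ACTL8, an actin-like gene of testis and cancer, was at 5.66, 7.67, 4.84 and 4.55 CPM in LRCs and at 10.8, 17.3, 11.6 and 12.3 CPM in non-LRCs, and fell by 1.19 ± 0.12 (adjusted p = 0.00019, and 0.024 without the block). NR2F1, an orphan nuclear receptor, was at 9.07, 15.5, 10.7 and 10.5 CPM in LRCs and at 17.2, 28.9, 22 and 25.1 CPM in non-LRCs, and fell by 1.03 ± 0.09 (adjusted p = 0.00011, and 0.037 without the block). The groups did not overlap for either gene, and they were the 2 genes that fell in both fits by at least 2-fold. AMH, the anti-Müllerian hormone, fell by 1.19 ± 0.26. TROAP, a mitotic spindle protein, fell by 1.01 ± 0.11, TRAIP, a ubiquitin ligase of the replisome, by 0.90 ± 0.17, and PTTG1, the securin that guards sister chromatids, by 0.88 ± 0.11. The glycine transporter SLC6A9 fell by 0.84 ± 0.09, with the LRCs of replicate 2 at 3.28 CPM and its non-LRCs at 5.28 CPM, where every other sample was at 20.5 CPM or more. ASB4 fell by 0.97 ± 0.20, NRGN by 0.84 ± 0.18 and FGFBP1, a carrier of fibroblast growth factors, by 0.84 ± 0.13 (adjusted p between 0.00027 and 0.02 for these 8 genes, none of which passed without the block).

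Of 39 enterocyte genes 15 had enough counts to be tested, and 6 rose and 1 fell (5.67% and 4.61% of all genes tested). Those that rose were led by the carcinoembryonic antigen family of adhesion molecules. CEACAM5 was at 8.43, 7.46, 35.2 and 34.5 CPM in LRCs and at 3.67, 1.72, 8.73 and 6.06 CPM in non-LRCs, so the groups overlapped although all 4 pairs rose (log2 fold change 2.01 ± 0.17, adjusted p = 0.00012, and 0.28 without the block). CEACAM6 rose by 1.81 ± 0.29 (188 reads over the 8 samples) and CEACAM1 by 1.93 ± 0.39 (96 reads). Neither passed without the block (adjusted p = 0.22 and 0.087). CEACAM1 had enough counts to be tested only through the LRCs, so that its passing is no independent support for the others. TSPAN1, a tetraspanin of secretory epithelium, rose by 1.04 ± 0.10 and also passed without the block (adjusted p = 0.048). CDX2, the intestinal transcription factor, was at 32, 38.8, 41.3 and 38.6 CPM in LRCs and at 29.7, 47.7, 29.5 and 32.7 CPM in non-LRCs and did not pass (log2 fold change 0.13 ± 0.11, adjusted p = 0.51). Of 29 goblet, Paneth and enteroendocrine genes 4 could be tested, and MUC13, a membrane mucin, rose by 1.203 ± 0.13 (adjusted p = 0.00024). Of 22 Wnt target and stem cell genes tested, 2 rose and 1 fell, which is near the background of 5.67% and 4.61%. The Wnt effector TCF7 rose by 0.48 ± 0.07 and the hyaluronan receptor CD44 by 0.43 ± 0.06 (adjusted p = 0.0015 and 0.0019), and without the block TCF7 passed and CD44 did not (adjusted p = 0.019 and 0.057). LGR5, the crypt stem cell receptor, was at 2.32, 4.39, 3.34 and 2.73 CPM in LRCs and at 3.08, 4.65, 1.6 and 2.45 CPM in non-LRCs (log2 fold change 0.14 ± 0.23, adjusted p = 0.75). AXIN2, the Wnt feedback inhibitor, had a log2 fold change of -0.07 ± 0.06 (adjusted p = 0.53), and PTK7, a pseudokinase receptor of colon stem cells, of -0.00 ± 0.06 (adjusted p = 0.99).

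**Figure D4:**
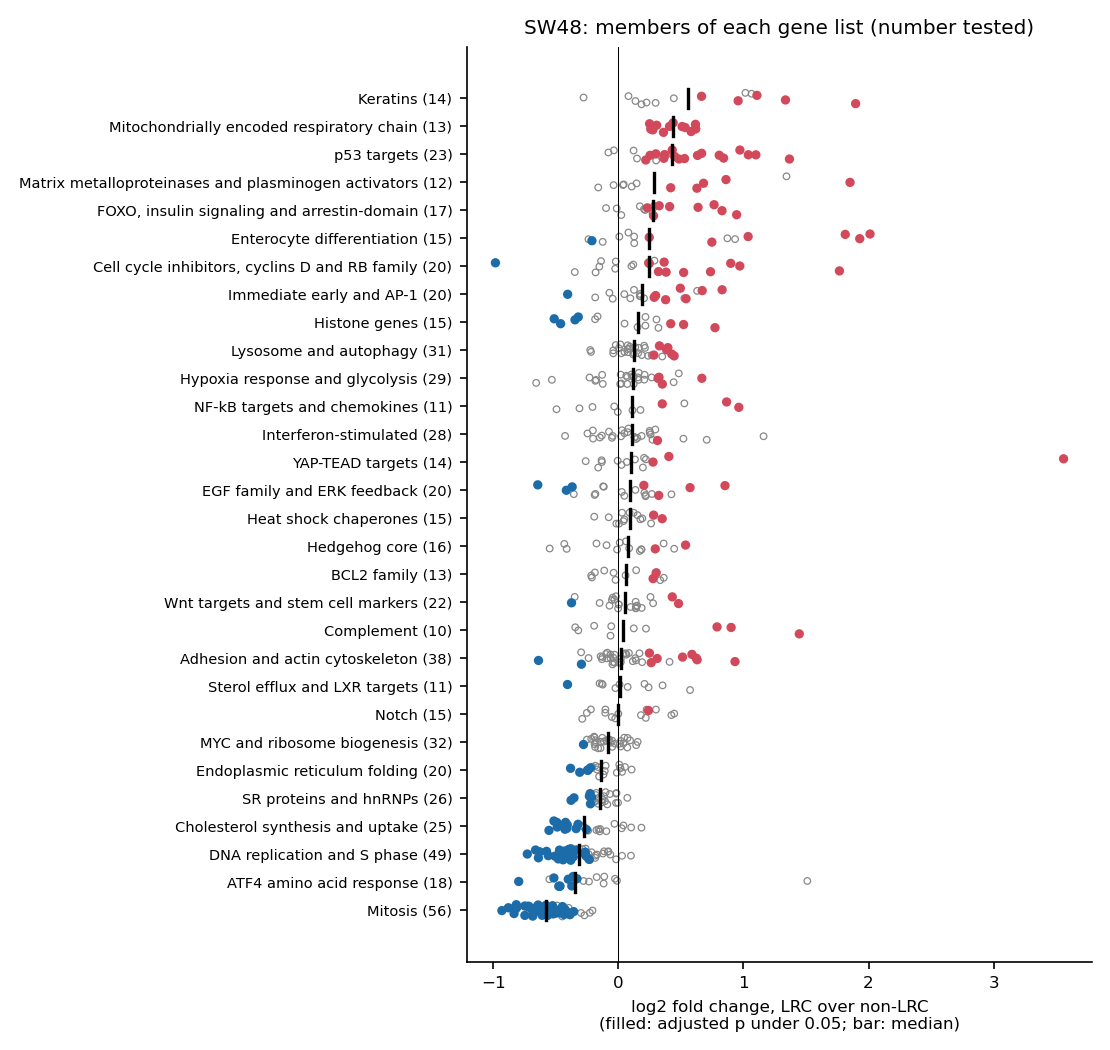
Log2 fold change of LRCs over non-LRCs (horizontal axis) for the tested members of the 30 gene lists with at least 10 tested members (rows), ordered by their median (bar). Filled points passed an adjusted p of 0.05, red for higher and blue for lower. The mitotic list lies lowest at -0.58 and the keratin list highest at 0.55.

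Metabolic genes moved in both directions, against a background of 5.67% higher and 4.61% lower. All 13 mitochondrially encoded subunits of the respiratory chain rose (median log2 fold change 0.44, range 0.25 to 0.62), 3 of them also without the block. MT-ND2, a subunit of complex I, was at 9281, 8399, 8736 and 8320 CPM in LRCs and at 5995, 5798, 6082 and 4838 CPM in non-LRCs (log2 fold change 0.62 ± 0.06, adjusted p = 0.0002). Of 18 genes of the ATF4 amino acid response tested, 9 fell and no member rose (median -0.35). PHGDH, the first enzyme of serine synthesis, was at 89.7, 31.2, 71.2 and 75.8 CPM in LRCs and at 157, 48.4, 126 and 141 CPM in non-LRCs. It was lower in all 4 pairs, with both replicate 2 samples below every other sample, and fell by 0.80 ± 0.07 (adjusted p = 6.9e-05, and 0.48 without the block). The serine synthesis enzyme PSAT1 fell by 0.40 ± 0.07 and the amino acid transporter SLC7A5 by 0.47 ± 0.07. The mean log2 CPM of the ATF4 list was lower in LRCs in pairs 1, 3 and 4 and 0.14 higher in pair 2, and without pair 2 12 members fell. Of 20 genes of endoplasmic reticulum folding 5 fell and no member rose, among them the chaperones HYOU1 (log2 fold change -0.38 ± 0.06) and HSPA5 (-0.22 ± 0.06). Of 25 cholesterol synthesis and uptake genes 12 fell and no member rose (median -0.27). Among them SQLE, the epoxidase of squalene, fell by 0.46 ± 0.07. Of 11 sterol efflux and LXR target genes 1 fell, SCD, the stearoyl-CoA desaturase (log2 fold change -0.41 ± 0.06, adjusted p = 0.0022). ABCG1, a cholesterol exporter, did not pass (0.57 ± 0.20, adjusted p = 0.09). None of the ATF4, folding, cholesterol or LXR genes passed in edgeR without the block, where 12 had an unadjusted p under 0.05. With the block 25 of them passed in DESeq2.

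The counts of the next 8 lists stand against 5.67% higher and 4.61% lower over all genes tested. Of all genes in them, 1 histone gene passed without the block. Of 17 genes of FOXO and insulin signaling tested, 8 rose and no member fell (median log2 fold change 0.28). ARRDC4, an arrestin-domain protein that limits glucose uptake, was at 97.1, 53, 121 and 136 CPM in LRCs and at 52.9, 25.9, 69.7 and 64.1 CPM in non-LRCs (log2 fold change 0.95 ± 0.07, adjusted p = 4e-05, and 0.35 without the block). SESN3, a sestrin that restrains mTORC1, rose by 0.77 ± 0.12 and FOXO1 itself by 0.41 ± 0.07. Of 31 lysosome and autophagy genes 6 rose, among them the cysteine cathepsin gene CTSB (0.43 ± 0.06, adjusted p = 0.0017). Of 13 BCL2 family genes 2 rose, among them MCL1 (0.30 ± 0.06), which protects from apoptosis. Of 29 genes of the hypoxia response 4 rose, led by the vasodilator peptide gene ADM (0.67 ± 0.11), and of 15 heat shock chaperones 2 rose, among them HSP90AA1 (0.28 ± 0.06). Of 15 histone genes 3 rose and 4 fell, the latter including the linker histone H1-10 (-0.46 ± 0.06) and the variant histone H2AZ1 (-0.51 ± 0.07). Of 26 SR protein and hnRNP genes 6 fell, among them the splicing factor SRSF1 (-0.38 ± 0.07), and 12 fell with library size as the only scaling. Of 32 MYC target and ribosome biogenesis genes 1 fell (background 4.61%), the nucleolar methyltransferase FBL (-0.28 ± 0.06, adjusted p = 0.021), and 11 fell with library size as the only scaling. Their median was -0.08, and MYC itself did not pass (-0.14 ± 0.06, adjusted p = 0.19). An E-box (CACGTG, a palindrome) was in 3.85% of their 26 promoters with a window and in 6.49% of all promoters.

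The signaling counts that follow stand against a background of 5.67% higher and 4.61% lower. Of the genes described next, TGFA was the one that passed without the block. Of the immediate early list, 7 of 20 immediate early genes rose and 1 fell (median log2 fold change 0.19). The phosphatase DUSP1 was at 36.9, 35.4, 13 and 7.94 CPM in LRCs and at 19.8, 21.2, 9.19 and 6.2 CPM in non-LRCs, so its level differed more between replicates than between populations, and it rose by 0.67 ± 0.10 (adjusted p = 0.0023, and 0.66 without the block). FOSL1, an AP-1 subunit, fell by 0.40 ± 0.07. Of 20 genes of the EGF family and ERK feedback 4 rose and 3 fell. TGFA, a ligand of the EGF receptor, rose by 0.85 ± 0.10 with no overlap of the groups, whereas ETV4, a transcription factor downstream of ERK, fell by 0.64 ± 0.09. Of 14 YAP-TEAD target genes 3 rose. CCN2, a matricellular protein, was at 3.02, 6.2, 1.5 and 0.651 CPM in LRCs and at 0.328, 0.255, 0.171 and 0.144 CPM in non-LRCs (log2 fold change 3.56 ± 0.37, adjusted p = 0.00023, and 0.061 without the block), and had enough counts to be tested only through the LRCs. Of 11 NF-kB target genes 3 rose, among them the apoptosis inhibitor BIRC3 (0.96 ± 0.17) and the ubiquitin editor TNFAIP3 (0.87 ± 0.16). Of 28 interferon-stimulated and 15 Notch genes 1 each rose, which is near the background of 5.67%. Of 16 Hedgehog genes tested 2 rose, the acyltransferase HHAT (0.54 ± 0.15, adjusted p = 0.041) and the coreceptor CDON (0.30 ± 0.08, adjusted p = 0.048), and with library size as the only scaling no member rose and 2 fell. PTCH1, the receptor and a target of the pathway, was at 126, 119, 124 and 115 CPM in LRCs and at 67.2, 80.5, 110 and 104 CPM in non-LRCs. Its groups did not overlap, yet it missed the threshold (0.45 ± 0.12, adjusted p = 0.054). SUFU, the pathway's cytoplasmic inhibitor, did not pass (-0.09 ± 0.07, adjusted p = 0.44), and GLI1 stayed at or below 0.901 CPM in every sample and was not tested.

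Of 12 matrix metalloproteinase and plasminogen activator genes tested, 5 rose (5.67% of all genes tested did) and no member fell. MMP1, the interstitial collagenase, was at 2.9, 2.3, 7.01 and 2.93 CPM in LRCs and at 0.721, 1.72, 1.37 and 0.288 CPM in non-LRCs (log2 fold change 1.85 ± 0.36, adjusted p = 0.01, and 0.14 without the block). SERPINE2, a protease inhibitor, rose by 0.86 ± 0.08 and its relative SERPINB5, maspin, by 0.68 ± 0.09, both with no overlap and in both fits. Of 10 complement genes 3 rose (background 5.67%). CD55, which shields cells from complement, was at 3340, 1670, 3595 and 3303 CPM in LRCs and at 2220, 875, 2205 and 1732 CPM in non-LRCs (0.79 ± 0.07, adjusted p = 0.00011, and 0.37 without the block). CLU, the chaperone clusterin, was at 297, 285, 317 and 306 CPM in LRCs and at 168, 236, 128 and 133 CPM in non-LRCs (0.90 ± 0.18, adjusted p = 0.037, and 0.052 without the block). C4BPB, a chain of C4b-binding protein, rose by 1.45 ± 0.25. Of 38 adhesion and actin genes 8 rose (background 5.67%) and 2 fell (background 4.61%), and those that rose included the collagen receptor subunit ITGA2 (0.62 ± 0.07) and the laminin 332 chain LAMA3 (0.93 ± 0.12), both also without the block.

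The second question was whether the LRC effect in SW48 differs from that in the other lines. Of 16603 genes tested over the 48 sorted samples with line and replicate as blocks, 586 (3.53%) had an effect in SW48 that differed from the mean effect of DLD1, HCT15, HT55, RKO and SW948, 270 (1.63%) higher and 316 (1.9%) lower. Of the mitotic genes 19 were lower in SW48 than the mean of the others. Taken alone, the mitotic list also fell in DLD1, where 51 of 56 passed (16.8% of all its genes were lower), and in RKO, where 39 passed (19.2%), but 40 of 56 rose in HCT15 (11.5% of its genes were higher). Their medians were -0.51 in DLD1, -0.64 in RKO, 0.35 in HCT15, 0.05 in HT55 and 0.02 in SW948, against -0.58 in SW48. Of the p53 targets 7 were higher and 1 lower in SW48 than the mean of the others. In RKO alone 21 of 23 rose (18.1% of its genes were higher), in HCT15 8 of 23 rose and 3 fell (10.3% of its genes were lower), and in DLD1 4 of 21 rose and 2 fell (17.6% of its genes were higher), with medians of 0.75, 0.17 and 0.02 against 0.43 in SW48. The medians in HT55 and SW948 were 0.04 and 0.02. CDKN1A rose in SW48 by 1.18 ± 0.15 more on the log2 scale than in the mean of the others (adjusted p = 8.6e-05), while its log2 fold changes in the 5 other lines lay between 0.48 and 0.68. Without the block 78 genes passed the test of the difference.

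SPNS2 had the smallest p-value in the test of the difference from the other lines. Its log2 fold change was 2.09 in SW48 and between 0.01 and 0.75 in the others (difference 1.78 ± 0.13, adjusted p = 6.8e-12). CTSV had a log2 fold change of 1.86 in SW48 and of -0.28 to 0.54 in the others (difference 1.74 ± 0.15, adjusted p = 1e-07). The ATF4 list stood on the other side, with 10 of 18 members tested lower in SW48 than the mean of the others and no member higher. Of all genes tested 1.9% were lower. Its median was -0.35 in SW48, 0.50 in HCT15, 0.32 in HT55, 0.24 in SW948, 0.02 in DLD1 and -0.06 in RKO. PHGDH had a log2 fold change of -0.80 in SW48, 1.03 in HT55, 0.32 in HCT15, 0.30 in SW948, 0.02 in DLD1 and -0.68 in RKO (difference -0.99 ± 0.14, adjusted p = 8.2e-05, and 0.19 without the block). LAMP3, a lysosomal membrane protein, fell by 0.70 in SW48 and had log2 fold changes between 0.17 and 1.34 in the other lines (difference -1.53 ± 0.19, adjusted p = 4e-06). CCN2 (difference 2.88 ± 0.48) and BHLHE41, a clock repressor (2.42 ± 0.45), were among the 6 largest differences upward. Without the block BHLHE41 did not pass this edgeR test (adjusted p = 0.29). Others of those 6 had too few counts in SW48 to be tested there alone. For 4 of the 6 largest differences downward, MMP1, NIBAN1, HKDC1 and CDKN2A, 3 of the 6 lines had enough counts to be tested alone. MMP1 had log2 fold changes of 1.85 in SW48, 2.90 in HCT15 and 1.47 in RKO, so its difference of -2.42 rests on lines with few counts. Among the upward differences, CPA4 and GLIPR1 could also be tested alone in 3 of the 6 lines. CPA4 had log2 fold changes of 3.49 in SW48, 2.39 in RKO and 0.94 in HCT15 (difference 2.57). The mitochondrially encoded list rose in SW48 and RKO (median 0.44 and 0.77) and had medians between -0.14 and 0.19 elsewhere.

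**Figure D5:**
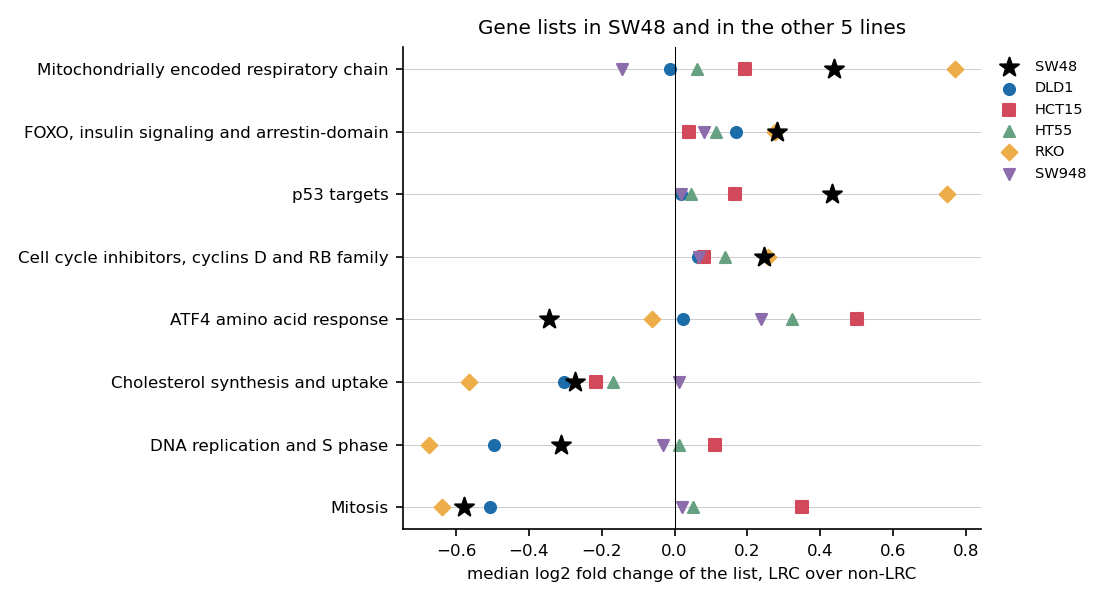
Median log2 fold change of LRCs over non-LRCs (horizontal axis) for 8 gene lists (rows) in SW48 (star) and in the 5 other lines. SW48 lies beside RKO and DLD1 for the mitotic list, between RKO and the rest for the p53 targets, and lowest of the 6 lines for the ATF4 list.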

How the data were processed

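RNA from sorted cells was sequenced by the authors as single-end reads, and the deposited files hold raw counts per Ensembl gene, made with TopHat and HTSeq on hg19 per the submitters' processing notes, with the annotation release not given in the sources used here. HTSeq summary lines (6.53% to 9.95% of reads outside genes) were left out. Symbols came from GENCODE 44 lifted to GRCh37 (72.5% of IDs). Genes that reached 10 counts in 4 or more samples were tested in edgeR 4.0.16 (TMM, quasi-likelihood, Benjamini-Hochberg) in R 4.3.3, and DESeq2 1.42.0 was an alternative. CPM are scaled to 1000000 counts of the TMM-scaled library, taken over the genes tested. The TMM factors were 0.9633, 1.038, 0.941 and 0.9695 in LRC replicates 1 to 4. In the matching non-LRCs they were 1, 1.045, 1.012 and 1.035. Levels in CPM and the overlap of groups carry this scaling. Replicate number was a block: same-numbered LRC and non-LRC samples deviated together from their group means (r of 0.187 to 0.611), different-numbered ones between -0.456 and 0.221. The ranges overlap: LRC replicate 4 had a higher r with non-LRC replicate 1 (0.221) than with non-LRC replicate 4 (0.187). Deviations from a group mean also sum to 0, which ties these values to each other. In simulated SW48 counts the blocked fit recovered 80% of genes changed by 0.5 log2 and 99% of those changed by 1 log2, with 5.29% false calls. These counts were drawn from the blocked model itself, and changes were put only into genes with higher counts. The simulation therefore cannot say whether the block is right or how low-count genes fare. The 202 named genes were the 12 largest changes each way, up to 4 members per list, genes past both fits at 2-fold, textbook genes, and the 6 largest line differences each way. The genes and lists were chosen with earlier results of these data known. The dye and culture controls (16 samples) were not used. Promoters are RefSeq windows. Alternatives without mitochondrial genes, or with genes counted in every line, were added after seeing the data. Some results are not reported here.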

Additional observations from a re-analysis of the deposited data

Results flagged for a closer look

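In 242 groups of 4 samples, 1 sample lay far from its 3 neighbors in 23 (its gap to the nearest value, over the whole range, was above Dixon's critical value), and chance flags about 1 in 20 groups. Of these 23 samples, 18 were replicate 2. It was high for TROAP LRCs at 20.4 CPM (the other 3 between 6.56 and 8.85 CPM), MYBL2 non-LRCs at 23.6 CPM (the other 3 between 7.02 and 9.16 CPM), ASB4 LRCs at 7.11 CPM (the other 3 between 0.976 and 1.67 CPM), ASB4 non-LRCs at 15.8 CPM (the other 3 between 1.88 and 3.08 CPM), POLD1 non-LRCs at 40.4 CPM (the other 3 between 18.8 and 22.4 CPM) and MCM2 LRCs at 101 CPM (the other 3 between 77.7 and 80.7 CPM). It was also high for BIRC5 LRCs at 62.5 CPM (the other 3 between 18.3 and 25.2 CPM), PRC1 LRCs at 95.2 CPM (the other 3 between 34.5 and 43.9 CPM), MKI67 LRCs at 243 CPM (the other 3 between 50.2 and 76.3 CPM), SQLE LRCs at 124 CPM (the other 3 between 78.2 and 86 CPM), ETV4 non-LRCs at 47 CPM (the other 3 between 25.3 and 26.7 CPM), BIRC3 LRCs at 10.9 CPM (the other 3 between 4.42 and 5.09 CPM) and H2AZ1 non-LRCs at 204 CPM (the other 3 between 137 and 145 CPM). Replicate 2 was low for FBL LRCs at 170 CPM (the other 3 between 192 and 194 CPM), PSAT1 non-LRCs at 111 CPM (the other 3 between 380 and 406 CPM), HYOU1 non-LRCs at 272 CPM (the other 3 between 348 and 358 CPM), CD55 LRCs at 1670 CPM (the other 3 between 3303 and 3595 CPM) and NOS3 LRCs at 42.7 CPM (the other 3 between 60.8 and 63.3 CPM). In the other replicates the samples apart were DSG3 in replicate 1 of the LRCs at 8.88 CPM (the other 3 between 11.1 and 11.5 CPM), LCE3D in replicate 3 of the LRCs at 4.26 CPM (the other 3 between 1.35 and 1.82 CPM), FGFBP1 in replicate 1 of the non-LRCs at 35.9 CPM (the other 3 between 22.6 and 23.7 CPM), MMP1 in replicate 3 of the LRCs at 7.01 CPM (the other 3 between 2.3 and 2.93 CPM) and LAMP3 in replicate 1 of the LRCs at 13.5 CPM (the other 3 between 8.5 and 9.11 CPM).

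For 59 genes of the text the LRC effect in SW48 differed from the mean effect of the 5 other lines, tested as a contrast in edgeR's quasi-likelihood fit over 48 samples with an adjusted p under 0.05. The difference in log2 fold change, SW48 minus the others, was positive for 32 of them, with values of CCN2 2.88, CPA4 2.57, BHLHE41 2.42, GLIPR1 2.12, AMPD3 1.84, SPNS2 1.78, CTSV 1.74, SLC6A20 1.65, CEACAM1 1.56, CEACAM5 1.35, C4BPB 1.31, CDKN1A 1.18, MUC13 1.17, NECTIN4 1.03, FAS 0.81, TOB1 0.81, TSPAN1 0.77, ZMAT3 0.74, TP53INP1 0.72, BTG2 0.65, ARRDC4 0.64, MPZL3 0.63, MDM2 0.62, ITGA2 0.61, SERPINE2 0.60, CCNG2 0.49, TCF7 0.44, CD55 0.44, TGFA 0.42, CD44 0.34, MCL1 0.32 and HSP90AA1 0.30. It was negative for 27 of them, with values of MMP1 -2.42, NIBAN1 -2.23, HKDC1 -1.74, LAMP3 -1.53, CDKN2A -1.48, NOS3 -1.47, NRGN -1.26, ASB4 -1.26, SLC6A9 -1.20, PHGDH -0.99, TRAIP -0.86, NR2F1 -0.83, PLK1 -0.75, KIF2C -0.73, PTTG1 -0.66, MYBL2 -0.61, CCNB2 -0.56, SLC7A5 -0.55, FOSL1 -0.54, CCNB1 -0.51, PSAT1 -0.51, BIRC5 -0.48, ETV4 -0.45, HSPA5 -0.42, H1-10 -0.34, HYOU1 -0.32 and H2AZ1 -0.30. A positive difference says that the effect was higher in SW48 than in that mean, and a negative one that it was lower. This holds whatever the sign of the effect in SW48 itself, and a single line could still go further. TP53INP1 rose by 2.22 in RKO against 1.10 in SW48, and MYBL2 fell by 1.27 against 1.001. CDKN1A and SPNS2 instead changed most in SW48. CPA4, GLIPR1 and ASB4 could be tested alone in 3 of the 6 lines. Without the block most of the 59 genes no longer passed this edgeR test. Among these were the mitotic genes PLK1 (adjusted p = 0.32), KIF2C (0.36), PTTG1 (0.49), CCNB2 (0.54), CCNB1 (0.55) and BIRC5 (0.66). CEACAM5 (0.25) and CD55 (0.52) did not pass either. Those that still passed included SPNS2, CTSV, MDM2, TCF7 and CDKN1A.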

How the results depend on the processing

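The replicate block moved the counts most. Without it 112 genes passed in SW48 (101 higher, 11 lower), and 78 passed the test of the difference from the other lines (48 higher, 30 lower). With library size as the only scaling 1357 genes were lower in SW48, and 165 were higher and 706 lower than in the other lines. Without a filter 963 genes were lower, over 26566 tested. Without RKO in the mean 461 genes were higher than in the other lines. DESeq2 called 954 genes in SW48 and RLE scaling 1345. The cause of these shifts was not tested.

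Leaving out 1 replicate gave 550 to 1336 genes (345 to 751 higher, 205 to 585 lower) and 275 to 496 genes for the difference from the other lines (124 to 267 higher, 151 to 229 lower). The difference in mitochondrial share was then 2.94 to 3.31 percentage points and that in the share of the 10 most abundant genes 2.88 to 3.21, each at p = 0.1 in the two-sided exact permutation test, the smallest that 3 against 3 allows. The difference in counts on genes, LRCs minus non-LRCs, ranged from -1638000 to 713900 and that in genes with 10 counts from -69.7 to 159.

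Of 163 named genes that passed, 66 also passed without the block, 153 in DESeq2, 153 with library size only, and 126 to 151 with 1 replicate left out, and none changed direction in these. Of the genes that did not pass, LYZ ranged from -0.27 to 0.078 (0.04 without replicate 1), LGR5 from -0.12 to 0.32, PTK7 from -0.032 to 0.047, CDX2 from -0.0001227 to 0.27, NOS3 from -0.16 to 0.031 and EPCAM from -0.023 to 0.0265 in log2 fold change with 1 replicate left out. PTK7 was at 0.0017 with 10 counts in every sample and at 0.0029 with all 48 samples, and EPCAM at -0.060 with library size only and at -0.0106 without a filter. Depth limits genes such as GLI1, KRT20 and MUC2, with few counts. Restricted to genes counted in every line, an alternative chosen after seeing the data, 581 of 10907 genes differed from the other lines.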
